A study of Mus musculus with 4 samples.

Results

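Among T cells sorted from tumors that 105K mouse cells formed under the skin, 117 cells carried at least 2 RNA molecules of Sox4 and lacked RNA of the CD8 coreceptor and of Foxp3. They were chosen by thresholds on molecule counts (unique molecular identifiers, UMIs): 200 to 3000 detected genes, at most 5% mitochondrial UMIs, at least 1 UMI of Cd3d, Cd3e and Cd3g together, no UMI of Cd8a, Cd8b1 or Foxp3, at most 2 UMIs of Nkg7 and at least 2 of Sox4. Of 38860 called cells, 21900 passed the gene and mitochondrial limits and 6171 passed every limit other than that on Sox4. Of these, 117 had at least 2 Sox4 UMIs, 337 had 1 and 5717 had none. The last are called Sox4-zero cells here. The Sox4-positive cells came from control library 1 (47 cells), control library 2 (48), knockdown library 1 (10) and knockdown library 2 (12).

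Tsc2-deficient 105K cells, derived from a mouse kidney tumor, formed tumors under the skin of wild-type C57BL/6J males that were 6 weeks old at injection. In the control group (sh-NC) the tumor cells expressed a hairpin with no target, and in the knockdown group (sh-B7-H3 (1)) one directed at Cd276, which encodes the checkpoint ligand B7-H3, each as a mixed pool of transduced cells. Live CD3+ cells were sorted from 80 pooled tumors per group and profiled by CITE-seq, which reads polyadenylated RNA and antibody-derived surface tags from the same droplet. Each group has 2 libraries. Per the labels these are lanes of 1 pool, while the study's text calls them independent samples in one place and describes a single lane in another. The labels were followed, so SDs and p-values below are read as the spread between lanes and not between mice. The hairpin acts in tumor cells: Cd276 had 9 to 11 UMIs per library over all called cells and was not seen in any Sox4-positive cell, so these libraries do not check the knockdown.

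Sox4 is a transcription factor of the SOX family that is expressed in developing thymocytes and falls as T cells mature. Recent thymic emigrants are T cells that have newly left the thymus and complete their maturation in the periphery, where they gain proteins such as CD55, CD73, Qa2 and the IL-7 receptor and lose CD24. Myb and Id3 encode regulators of thymocyte development, Itm2a a membrane protein induced during positive selection, and Cd200 an inhibitory ligand.

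The Sox4-positive cells had a median of 6615 to 6980 RNA UMIs per library (3233 to 16349 over cells), against 6108 to 8080 in Sox4-zero cells. Summed over these cells, RNA depth was 344759 and 370429 UMIs for control and 66824 and 89775 UMIs for knockdown, so the knockdown values are the less precise. The libraries shared 17 to 35 barcodes pairwise, at most 0.427% of the smaller library. A doublet score marked 19 of the 117 cells, 16.2%, and 6.79% to 12.1% of Sox4-zero cells per library. The ribosomal-repeat transcript Gm42418 stood at 31411 and 27045 CPM (counts scaled to a common total) in Sox4-positive cells of the knockdown libraries against 5308 and 4427 CPM in those of the control libraries, a difference that Sox4-zero cells shared.

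By Cd4 RNA and the CD4 and CD8b tags the Sox4-positive cells resembled the other gated cells, but not all were CD4 T cells. A Cd4 UMI was found in 72 of 117, which was 61.7%, 60.4%, 60.0% and 66.7% per library (order: control 1, control 2, knockdown 1, knockdown 2), against 58.7%, 61.6%, 48.3% and 48.9% of Sox4-zero cells. The median CD4 tag count was 6, 5, 4.5 and 4.5 UMIs per cell, against 5, 5, 5 and 4 in Sox4-zero cells and 1 in the CD8 cells of every library (at least 3 Cd8a and Cd8b1 UMIs, no Cd4 UMI). The CD8b tag stood at medians of 1 to 3 UMIs, against 37 to 69 in CD8 cells. None of the 7 CD4 lineage genes tested (Cd4, Zbtb7b, Cd40lg, Gata3, Trac, Trbc1, Trbc2) passed the test against Sox4-zero cells. Since 0.773% of all genes tested passed it, no call among 7 says little by itself. Their median difference was -0.14 on the log2 scale, and 0.12 with scaling by total UMIs. However, 5 cells, all from the control libraries, held 8 to 17 UMIs of Trdc, the constant region of the T cell receptor delta chain. None of these 5 had a Cd4 UMI, and their median TCR beta tag count was 7 (4 to 62), against 64 over all 117. Their median gamma-delta receptor tag count was 3 (2 to 23), the same as over all 117. Over 4 Trdc UMIs were held by 2 of 47, 3 of 48, 0 of 10 and 0 of 12 Sox4-positive cells per library. Of Sox4-zero cells 10 of 2448, 15 of 1851, 4 of 604 and 2 of 814 held as many, a smaller share in both control libraries. Lyz2, a macrophage gene, had a UMI in 4 of the 117 cells, and a doublet score marked 3 of these 4. At least 10 Lyz2 UMIs were found in 3 cells, 2 of control library 2 and 1 of knockdown library 2. One cell of control library 2 held 208 UMIs of Lyz2 and 127 of Spp1, also a macrophage gene.

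The genes given with the label varied widely from cell to cell. A UMI of Itm2a was found in 63 cells, of Id3 in 54, of Myb in 23 and of Cd200 in 23. Of the 117 cells, 29 had none of these 4 genes, 40 had 1, 29 had 2, 11 had 3 and 8 had all 4. Rag1 and Rag2, which encode the recombinase of developing thymocytes, had no UMI in the 117 cells, Dntt had 11 UMIs in 5 cells and Cd24a 6 UMIs in 3. At these levels and this depth a cell without a UMI may still express the gene, so these counts do not give the share of cells that do. The cells are called Sox4-positive here.

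**Figure D1:**
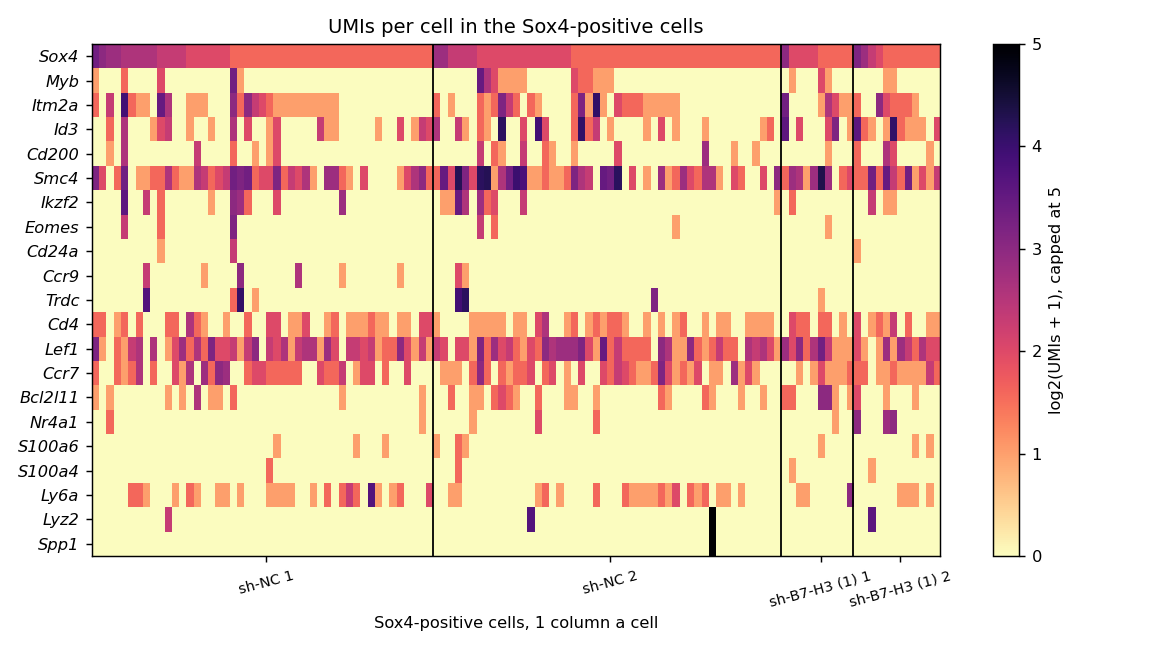
UMIs of 21 genes in each of the 117 Sox4-positive cells. Each column is a cell, ordered within its library, and the colour is log2(UMIs + 1), capped at 5. Smc4, Lef1 and Ccr7 are spread over most cells, Myb, Ikzf2 and Eomes overlap in a small number of cells, and Trdc is high in 5 control cells. Lyz2 and Spp1 are highest in 1 cell, and 3 cells hold at least 10 Lyz2 UMIs.

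The values that follow for the label's own genes are a description, since the cells were named with these genes in view. In Sox4-positive cells Myb stood at 46.4, 86.4, 74.8 and 22.3 CPM, against 4.94, 5.16, 4.13 and 2.50 CPM in Sox4-zero cells. Itm2a stood at 220, 181, 299 and 212 CPM against 60.5, 66.5, 41.2 and 55.0 CPM. For both genes every Sox4-positive library was above every Sox4-zero library. Id3 stood at 136, 227, 389 and 434 CPM against 91.0, 98.1, 82.5 and 117 CPM, again with no overlap. Cd200 stood at 49.3, 70.2, 15.0 and 123 CPM against 15.2, 14.0, 12.4 and 11.1 CPM, and here knockdown library 1 lay within the range of the Sox4-zero libraries. The fitted log2 differences were 3.44 for Myb, 1.95 for Cd200, 1.61 for Itm2a and 1.08 for Id3.

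Cells with exactly 2 Sox4 UMIs, just inside the limit, made up 70 of the 117, and the 337 cells with 1 UMI lie just outside it. To compare them at equal depth every cell was thinned to 3000 UMIs, which left out 239 Sox4-zero cells and 2 cells with 1 Sox4 UMI. Itm2a was then found in 13.3% ± 2.2 (SD, n = 4 libraries) of Sox4-zero cells, 27.1% ± 8.5 of cells with 1 Sox4 UMI and 35.3% ± 6.3 of Sox4-positive cells. Myb was found in 1.16% ± 0.43, 2.35% ± 1.8 and 12.3% ± 6.2, and Id3 in 17.6% ± 2.4, 27.1% ± 11 and 38.7% ± 13. Before thinning, the Sox4-positive means were 55.9% for Itm2a, 21.1% for Myb and 53.9% for Id3. CD8 cells thinned in the same way had Itm2a in 6.24% ± 0.91 and Myb in 1.15% ± 0.40.

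**Figure D2:**
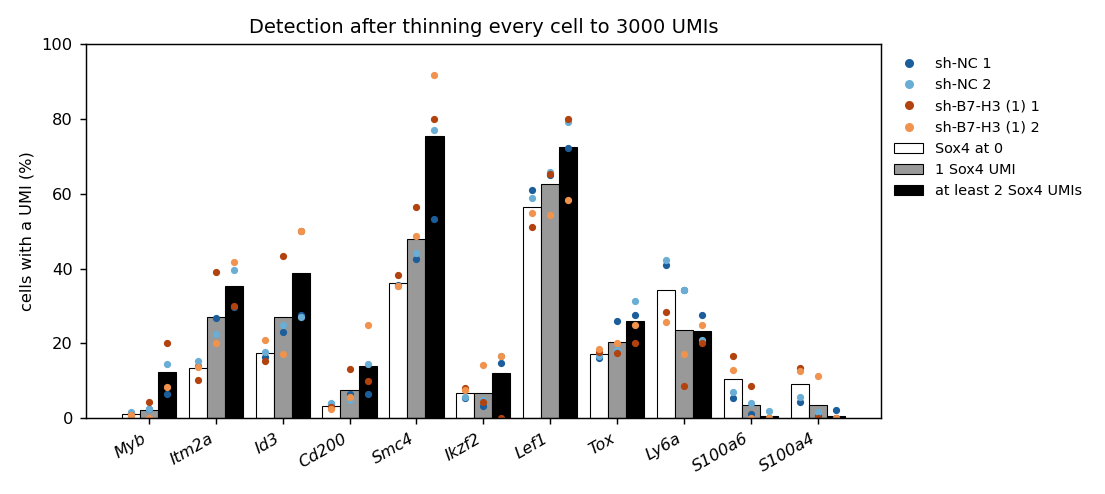
Percent of cells with a UMI of each gene after thinning every cell to 3000 UMIs. Bars are means of 4 libraries for Sox4-zero cells (white), cells with 1 Sox4 UMI (grey) and cells with at least 2 (black), and dots are libraries. Smc4 rises from 36.2% to 48.0% and 75.5% over the 3 classes, while S100a4 falls from 9.06% to 3.43% and 0.532%.

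Against Sox4-zero cells, the Sox4-positive cells were richer in Smc4 and Bcl2l11 and poorer in genes of memory and migration. The comparison covered 9053 genes and blocked on library. Here 70 genes passed (0.773% of those tested, Benjamini-Hochberg adjusted p under 0.05 and a log2 fold change of at least 1), 34 higher (0.376%) and 36 lower (0.398%). The 34 higher calls include the label's own Myb, Itm2a, Id3 and Cd200, whose calls the choice of cells bears on, and 66 genes, 30 of them higher, remained without these. Of the 70, 45 moved the same way in all 4 libraries (41 of the 66 without the label's genes), against 15.8% of all genes tested. The calls came from these same libraries, so this agreement is no separate check. Of the 70, 14 had at least 50% of their Sox4-positive UMIs in 1 cell. The split depended on scaling. The TMM scaling used here placed the median of all genes at -0.06 on the log2 scale, and scaling by total UMIs, chosen after the data were seen, placed it at 0.20 and called 84 genes (0.928%), 64 higher (0.707%) and 20 lower (0.221%). In all, 54 genes passed under both scalings.

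Smc4, a subunit of the condensin complexes that compact chromosomes, was higher in every library. It stood at 429, 629, 748 and 546 CPM in Sox4-positive cells against 184, 190, 194 and 184 CPM in Sox4-zero cells, and 100 of the 117 cells held a UMI. The libraries of the classes did not overlap, as for 11% of all genes tested. The log2 fold change was 1.29 ± 0.13 (SE; edgeR quasi-likelihood test, adjusted p = 2.56e-19), and it lay between 1.20 and 1.39 when any 1 library was left out.

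The cell cycle list summed to 603, 642, 434 and 512 CPM in Sox4-positive cells against 478, 484, 469 and 493 CPM, higher in 3 of 4 libraries. None of its 6 genes tested was called under TMM, which says little where 0.773% of all genes were called. Top2a was found in 1 cell and Mki67 in none. Stmn1, a microtubule regulator, stood at 98.6, 78.3, 59.9 and 78.0 CPM against 34.3, 36.7, 38.8 and 42.5 CPM. Its log2 fold change of 0.93 ± 0.22 (edgeR quasi-likelihood test, adjusted p = 0.00193) was under the fold limit, and 1.19 with scaling by total UMIs was over it.

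Bcl2l11, which encodes the pro-apoptotic protein Bim, was the 1 gene called among 7 of the BCL-2 family, where 0.376% of all genes were called higher. It stood at 43.5, 67.5, 299 and 55.7 CPM against 21.2, 24.9, 17.9 and 23.1 CPM, highest in knockdown library 1. The log2 fold change was 1.60 ± 0.27 (edgeR quasi-likelihood test, adjusted p = 8.48e-07), it lay between 1.05 and 1.90 when any 1 library was left out, and the gene stayed called. Bcl2, which encodes a survival protein, had a log2 fold change of -0.21 ± 0.17 and did not pass.

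The other higher genes named here were chosen for moving the same way in all 4 libraries, which 10 of the 30 higher calls outside the label's genes did. B630019A10Rik, an uncharacterised transcript, stood at 69.6, 89.1, 105 and 78.0 CPM against 19.4, 20.5, 21.2 and 21.9 CPM (log2 fold change 1.74 ± 0.27). Chchd10, a mitochondrial protein gene, stood at 81.2, 119, 165 and 167 CPM against 44.9, 44.6, 49.5 and 49.97 CPM (1.07 ± 0.19). Neither gene's libraries overlapped between the classes, as for 11% of all genes tested. Ift80, which encodes a protein of intraflagellar transport and lies next to Smc4 on the opposite strand (GRCm38, chr3:68892499-69004570, against chr3:69004738-69034623 for Smc4), rose by 1.41 ± 0.25. Igf2r, a sorting receptor, rose by 1.02 ± 0.28, the transcription factor gene Foxp4 by 1.18 ± 0.36 and Hivep3 by 1.59 ± 0.36. Without control library 2 Igf2r was at 0.74, Ift80 at 1.03 and Chchd10 just under the fold limit, and none was called. Without knockdown library 2 Hivep3 was at 1.08 and was not called, and Foxp4 was called only with all libraries or without knockdown library 1. Nr4a1, an early gene of T cell receptor signalling, was called at 1.73 ± 0.41 but stood at 223 CPM in knockdown library 2 and 8.70, 16.2 and 15.0 CPM in the others, and without that library its log2 fold change was 0.26.

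Genes of memory and migration were lower. Of 10 such genes tested all 10 had a negative log2 fold change. Called were 6, S100a4, S100a6, S100a11, Lgals1, Ahnak and Il18r1, where 0.398% of all genes were called lower. With scaling by total UMIs 4 were called, without Lgals1 and Ahnak, where 0.221% of all genes were called lower. The list's median was -1.35 against -0.06 over all genes. S100a4 and S100a6 encode calcium-binding proteins of motile cells. S100a4 was close to absent, and S100a6 was low and found in 9 of the 117 cells. S100a4 stood at 5.80, 5.40, 15.0 and 11.1 CPM, which was 6 UMIs in 4 cells, against 70.0, 91.2, 235 and 220 CPM in Sox4-zero cells. S100a6 stood at 8.70, 10.8, 15.0 and 22.3 CPM against 79.3, 87.4, 185 and 136 CPM. Both were below every Sox4-zero library in every Sox4-positive library, and for 11% of all genes tested the classes did not overlap. Their log2 fold changes were -4.25 ± 0.35 and -3.35 ± 0.32 (edgeR quasi-likelihood test, adjusted p = 5.18e-31 for S100a4). Il18r1, a cytokine receptor gene, had 3 UMIs in Sox4-positive cells, 0.119 times the rate in Sox4-zero cells (95% exact counting interval 0.0246 to 0.349).

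Ly6a, which encodes the surface protein Sca-1, was lower in every library. It stood at 133, 75.6, 135 and 44.6 CPM against 264, 271, 178 and 158 CPM, with a log2 fold change of -1.54 ± 0.18 that stayed between -1.80 and -1.25 when any 1 library was left out. Capg, an actin-capping protein gene, fell by 1.42 ± 0.26 on the log2 scale, Rgs1, a regulator of chemokine signals, by 1.70 ± 0.34, and Ctla2a and Lgals3 by 1.65 ± 0.35 and 1.87 ± 0.43. Lgals3 was not called without knockdown library 1 or without knockdown library 2 (-1.37 and -1.50). S100a11 fell by 1.47 ± 0.20 on the log2 scale and Lgals1, a galectin, by 1.22 ± 0.18. Without knockdown library 1 Lgals1 was at -0.97 and was not called. Of 12 effector genes tested all 12 had a negative log2 fold change, with a median of -1.12 against -0.06 over all genes. Called were 3, where 0.398% of all genes were called lower: the chemokine gene Ccl5 and the chemokine receptor genes Cxcr6 and Cxcr3. By total UMIs 2 were called, where 0.221% of all genes were called lower, and Ccl5 was at -0.93 and not called. Cxcr3 had 1 UMI in Sox4-positive cells (0.0928 times the Sox4-zero rate, 0.00235 to 0.519) and Cxcr6 had 3. The limit on Nkg7 in the choice of cells bears on effector genes in both classes.

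**Figure D3:**
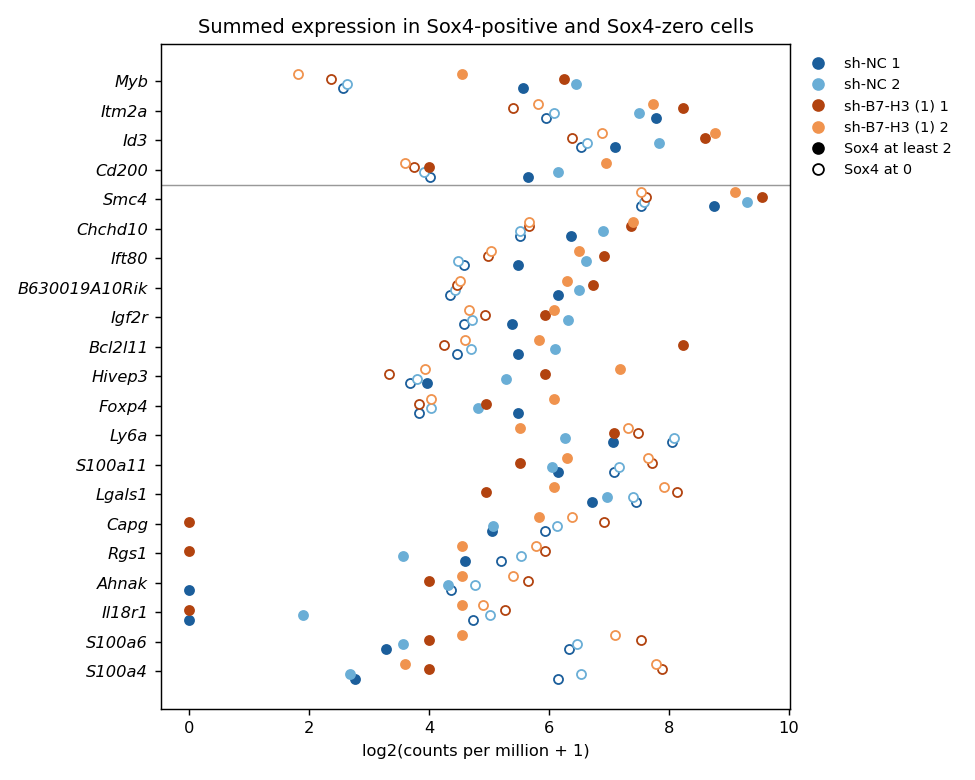
Expression of 21 genes summed over the Sox4-positive cells (filled) and Sox4-zero cells (open) of each library, as log2(CPM + 1). The 4 genes above the line were given with the label and are a description; Smc4 lies between 429 and 748 CPM in Sox4-positive cells, and S100a4 at 15.0 CPM or less.

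None of the 10 naive and homing genes tested was called under either scaling. Since 0.773% (TMM) and 0.928% (total UMIs) of all genes were called, no call among 10 says little by itself. Ccr7, which guides T cells into lymph nodes, had a log2 fold change of 0.01 with TMM and 0.28 by total UMIs. Ccr7 was found in 83 of the 117 cells, and S100a4 or S100a6 in 12. Lef1, a transcription factor of naive T cells, stood at 429, 440, 584 and 390 CPM against 353, 338, 274 and 277 CPM. Its log2 fold change was 0.21 ± 0.14 (edgeR quasi-likelihood test, adjusted p = 0.734), and 0.49 with scaling by total UMIs (adjusted p = 0.0029). Tcf7 and Foxp1 likewise passed the adjusted p with the second scaling only, at 0.57 and 0.66, under the fold limit in both. Igfbp4 and Dapl1, both of the naive list, passed the adjusted p as lower under both scalings (2.42% and 2.6% of all genes did, in either direction), at -0.83 and -0.75 with TMM and -0.56 and -0.47 by total UMIs.

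Most thymocyte and recent emigrant genes tested were higher, but the 2 calls rested on few cells. Of 14 genes, 8 could be tested, 7 with a positive log2 fold change and 1 with a negative one. Their median was 0.57 against -0.06 over all genes, and by total UMIs 0.84 against 0.20, with none negative. Called were 2, Cd24a and Ccr9, both higher, where 0.376% of all genes were called higher. Cd24a rested on 3 cells, and Ccr9, a receptor for homing to thymus and gut, on 8 cells of the control libraries (4 of them among the 5 cells with high Trdc). Ccr9 was at 0.32 without control library 1. Tox, a regulator of CD4 lineage development in the thymus, was more even. It stood at 122, 108, 195 and 100 CPM against 56.2, 57.2, 61.3 and 69.6 CPM. All 4 Sox4-positive libraries were above all Sox4-zero libraries, and for 11% of all genes tested the classes did not overlap. Its log2 fold change of 0.77 ± 0.18 (edgeR quasi-likelihood test, adjusted p = 0.00219) was under the fold limit, and 1.04 by total UMIs was over it. Satb1, a chromatin organiser of thymocytes, was at 0.36 ± 0.14 (edgeR quasi-likelihood test, adjusted p = 0.186). By total UMIs it was at 0.65, under the fold limit, and passed the adjusted p (same test, 2.32e-05).

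None of the 9 genes listed for late and post-thymic maturation, which include the exit genes Klf2 and S1pr1, was called. Since 0.773% of all genes tested were, no call among 9 says little by itself. Of these 9, 8 had a negative log2 fold change (median -0.47). Il7r, H2-Q7, Ms4a6b and Ly6c1 passed the adjusted p alone, as did 2.42% of all genes, in either direction. With scaling by total UMIs 6 of 9 were negative (median -0.19), and Il7r and Ly6c1 passed, as did 2.6% of all genes. Il7r, the IL-7 receptor alpha chain, stood at 281, 292, 329 and 279 CPM against 444, 456, 335 and 310 CPM. The difference was larger in the control libraries, and the log2 fold change was -0.74 ± 0.14 (edgeR quasi-likelihood test, adjusted p = 4.71e-05). Ly6c1 stood at 148, 62.1, 29.9 and 11.1 CPM against 153, 141, 67.9 and 82.5 CPM (-0.91 ± 0.20).

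The surface tags were measured apart from the RNA used to choose the cells. Of 197 tags, 2 passed (1.02%), 1 higher (0.508%) and 1 lower (0.508%). CD73, an ectoenzyme that rises on T cells after they leave the thymus, took 1802, 2985, 1961 and 3112 CPM of the tag UMIs (tag CPM) in Sox4-positive cells against 4550, 5156, 4591 and 4686 in Sox4-zero cells. All Sox4-positive libraries were below all Sox4-zero libraries, with a log2 fold change of -1.04 ± 0.16 (edgeR quasi-likelihood test, adjusted p = 0.0487). With scaling by total tags it was at -0.99, under the fold limit, and was not called. The median CD73 tag count was 5, 4, 4.5 and 2.5 UMIs per Sox4-positive cell and 13, 14, 8 and 5 per Sox4-zero cell. In cells with over 2 Nkg7 UMIs and none of Cd8a, Cd8b1 or Foxp3 it was 8, 7, 4 and 3, also below the Sox4-zero cells of each library. Low CD73 was therefore not particular to the Sox4-positive cells. CD55, a complement regulator gained at the same stage, stood at 604, 552, 521 and 581 tag CPM against 901, 890, 883 and 974. Its log2 fold change of -0.74 ± 0.09 (adjusted p = 0.037, which 1.52% of tags passed) was under the fold limit, and its libraries did not overlap either, as for 3.55% of all tags.

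The other tag called was TCRVb5.1_5.2, which marks 1 family of receptor beta chains, at 1.28 ± 0.19, and 5 cells held 57.8% of its UMIs in Sox4-positive cells. The CD24 tag, which falls as emigrants mature, had a log2 fold change of -0.06 ± 0.73. Its sums differed between libraries of a group (713, 1483, 7259 and 1151 tag CPM in Sox4-zero cells), where the median was 2, 2, 3 and 2 UMIs per cell. The CD200 tag, the protein of the label's gene Cd200, stood at 934.1, 1357, 2053 and 1915 tag CPM against 948, 882, 1499 and 1401 tag CPM. It was higher in 3 of the 4 libraries, with a log2 fold change of 0.32 ± 0.13 that did not pass (edgeR quasi-likelihood test, adjusted p = 0.450). The tags of CD127, the protein of Il7r, and of Sca-1 had log2 fold changes of -0.32 and -0.46, and neither passed (adjusted p = 0.398 and 0.0537). No tag was called when any 1 of the 4 libraries was left out, with 12 to 26 tags at an unadjusted p under 0.05 (21 with all libraries).

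**Figure D4:**
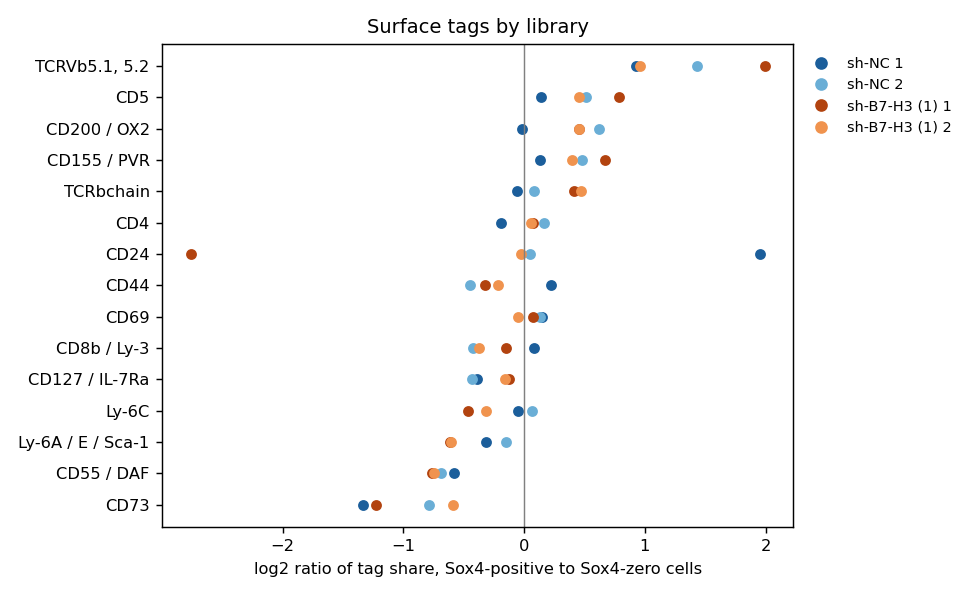
Log2 ratio of each tag's share of tag UMIs in Sox4-positive to that in Sox4-zero cells of the same library (x axis), 1 dot a library. CD73 and CD55 lie below 0 in all 4 libraries, and the CD24 tag points both ways.

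Within the 117 cells small subsets could be told apart by RNA. Eomes, a T-box transcription factor, was found in 7 cells, of which 6 also held Myb and Itm2a and 5 held Ikzf2. Ikzf2, which encodes Helios, stood at 122, 89.1, 29.9 and 66.8 CPM against 29.9, 40.1, 71.2 and 61.9 CPM. It was higher in Sox4-positive cells of the control libraries and of knockdown library 2 and lower in knockdown library 1, with a log2 fold change of 0.89 ± 0.20 under the fold limit, and 1.16 by total UMIs over it. Of the 5 control cells with high Trdc, 4 held 4 to 10 Ikzf2 UMIs each, 25 of the 83 in Sox4-positive cells. The doublet score marked 1 of the 7 cells with Eomes, 1 of the 5 with high Trdc and 2 of the 3 with Cd24a. The marked cells reached the highest counts of Eomes (8 UMIs), Trdc (17), Cd24a (4) and the gamma-delta receptor tag (23). With these cells left out Eomes was at 3.45 and Trdc at 2.39, and both were still called. Trdc was called higher at 2.20 ± 0.29, on 71 UMIs in 8 cells, and with a Cd4 UMI required it was at -2.27 and not called. Other lists held few calls, where 0.773% of all genes tested were called with TMM. Of 14 receptor signal genes 1 was called (Nr4a1, at 1.73 ± 0.41, and at 0.26 and not called without knockdown library 2), of 8 Treg genes 1 (Capg, lower), of 10 interferon genes 1 (Ifit1, lower, at -1.41 ± 0.37), of 12 immediate-early and stress genes 1 (Hspa1b, lower, at -1.22 ± 0.32), and of 7 follicular helper and 8 anergy genes none. With scaling by total UMIs neither Ifit1 nor Hspa1b was called, and Tnfrsf9 of the receptor signal list (1.23) and Ikzf2 of the Treg list (1.16) were called higher. The receptor beta chains were varied, with 12, 11, 7 and 3 variable segments seen in the 17, 19, 5 and 3 cells that held a segment UMI.

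RNA of other cell types was uneven. The myeloid list summed to 342, 2362, 15.0 and 1459 CPM in Sox4-positive cells and 356, 259, 1942 and 1506 CPM in Sox4-zero cells. Lyz2 was called higher at 1.05, with 88.5% of its UMIs in 1 cell, and at -2.00 without control library 2. Hemoglobin genes were called lower: Hbb-bs had 1 UMI in Sox4-positive cells, and 12.1, 607, 1934 and 1.92 CPM in Sox4-zero cells. Leaving out cells with more than 1 UMI of the macrophage genes or of globin, an alternative chosen after the data were seen, left 63 genes called between the classes and ended the call of Lgals3. The B cell list was carried by Ighm, at 120 to 178 CPM, and Ms4a1 and Iglc2 were at 0. The progenitor genes Cd34, Kit, Flt3, Gata2 and Mpo were at 0 too. The part of these cells in the other results was otherwise not tested.

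The share of Sox4-positive cells was compared between tumor groups. They made up 1.77% of gated cells in control library 1 (95% exact binomial interval 1.30 to 2.35), 2.38% in control library 2 (1.76 to 3.14), 1.57% in knockdown library 1 (0.755 to 2.87) and 1.39% in knockdown library 2 (0.721 to 2.42). Both control libraries were above both knockdown libraries, with means of 2.07% ± 0.43 and 1.48% ± 0.13 (SD, n = 2) and a ratio of 0.714 ± 0.16. The exact permutation test over libraries gave p = 0.33, two-sided, the smallest it can give with 2 against 2. As a share of all cells passing the gene and mitochondrial limits they made up 0.623%, 0.770%, 0.286% and 0.260%, a ratio of 0.392.

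Depth differed between the groups. Sox4-zero cells of the control libraries held a median of 7546.5 and 8080 UMIs, and those of the knockdown libraries 6107.5 and 6519.5. After thinning gated cells to 3000 UMIs (29, 27, 85 and 100 shallower cells left out) a Sox4 UMI was found in 4.00%, 4.02%, 3.804% and 3.15%, a ratio of 0.867. At least 2 Sox4 UMIs were then found in 0.610%, 0.351%, 0.725% and 0.525%, a ratio of 1.30 ± 0.57, on 4 to 16 cells per library. Without thinning, a Sox4 UMI was found in 7.73%, 8.32%, 5.18% and 5.57%, a ratio of 0.670. Both control libraries were above both knockdown libraries at 1 UMI with and without thinning, but not at 2 UMIs after thinning, and no permutation test with 2 against 2 libraries can pass. Thinned CD8 cells held a Sox4 UMI in 1.72%, 1.40%, 0.754% and 0.772%, below the gated cells of the same library. Thinned cells with over 2 Nkg7 UMIs and none of Cd8a, Cd8b1 or Foxp3 held one in 3.83%, 3.50%, 0.467% and 0.729%, in the control libraries near the gated cells. Droplets without cells held Sox4 at 6.87, 7.96, 18.6 and 10.4 CPM.

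**Figure D5:**
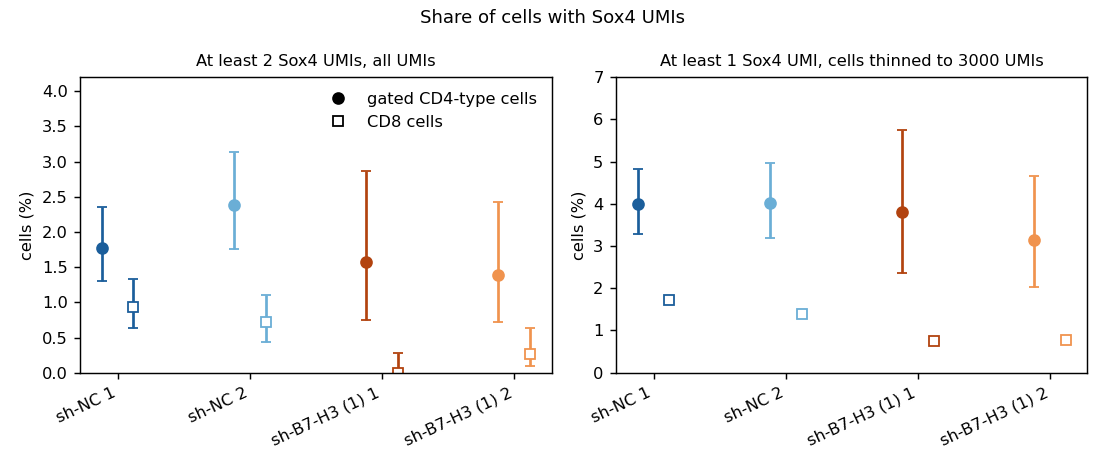
Left, percent of cells with at least 2 Sox4 UMIs among gated cells (circles) and CD8 cells (squares), with 95% exact binomial intervals; right, percent with at least 1 Sox4 UMI after thinning to 3000 UMIs, with intervals for the gated cells. Of 1342 CD8 cells in knockdown library 1 none had 2 Sox4 UMIs (interval up to 0.275%). The left circles lie between 1.39% and 2.38%, and the right ones between 3.15% and 4.02%.

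Within the Sox4-positive cells the libraries of the tumor groups were compared gene by gene. Of 2639 genes tested 3 were called (0.114%), all higher: Gm42418, AY036118 and Lars2. The first pair carries ribosomal RNA repeat sequence and Lars2 encodes a mitochondrial leucyl-tRNA synthetase. Lars2 stood at 122 and 127 CPM in control and 599 and 568 CPM in knockdown libraries, a log2 fold change of 2.22 ± 0.23 (edgeR quasi-likelihood test, adjusted p = 1.78e-07). Gm42418 and AY036118 rose by 2.57 ± 0.16 and 2.02 ± 0.16. All of them rose as much in Sox4-zero cells (2.20, 2.71 and 2.18), and the test of the difference did not pass (adjusted p = 0.972, 0.884 and 0.891). Leaving out 1 library leaves its group with 1, which is then assumed to vary like the 2 libraries of the other group. These fits called 9 genes without knockdown library 1, 5 without knockdown library 2, 7 without control library 1 and 4 without control library 2, and say little about the stability of the calls. The 22 knockdown cells limit what this comparison can show.

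Id3 stood at 389 and 434 CPM in the knockdown libraries against 136 and 227 CPM in control, with no overlap, as for 38.3% of all genes tested. Its log2 fold change was 1.18 ± 0.26 and did not pass the adjusted test (edgeR quasi-likelihood test, adjusted p = 0.066). Myb (-0.57 ± 0.62), Itm2a (0.32 ± 0.28), Cd200 (0.34 ± 0.56), Smc4 (0.26 ± 0.21) and Tox (0.30 ± 0.37) did not pass either, and their control and knockdown libraries overlapped. The test of whether the knockdown difference was the same in both classes called 7 of 9053 genes (0.0773%), all with negative values: Apoe, Lyz2, C1qa, C1qb, Spp1, Ccl8 and H2-Aa.

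Among the tags 6 passed between the groups within Sox4-positive cells (3.05%), CD22 higher and CD45, Sca-1, CD326, Ly-6C and CD24 lower (2.54%). Ly-6C, which marks subsets of T cells, stood at 14621 and 15447 tag CPM in control and 5331 and 7010 in knockdown libraries (log2 fold change -1.69 ± 0.18). Sca-1, the protein of Ly6a, stood at 16601 and 18326 tag CPM against 9803 and 10464 (-1.19 ± 0.14). CD45 fell by 1.26 ± 0.13 on the log2 scale. In Sox4-zero cells Ly-6C, Sca-1 and CD45 differed by -1.45, -0.96 and -1.50 and CD22 by 1.24. CD326 was at -0.55 there and CD24 at 1.37 ± 0.97, opposite in sign, and neither passed (edgeR quasi-likelihood test, adjusted p = 0.337 and 0.284). The CD24 tag of Sox4-zero cells was highest in knockdown library 1, at 7259 tag CPM against 713 to 1483 in the other libraries. In Sox4-positive cells 26.6% of the CD326 UMIs came from 1 cell, and 27.1% of the CD24 UMIs came from 1 cell and 59.9% from 5. No tag passed the test of the difference between the classes (edgeR quasi-likelihood test), with 22 at an unadjusted p under 0.05. Scaling by total tags moved the median of all tags from 0.03 to 0.44 and called 15 tags (7.61%), 14 higher (7.11%) and 1 lower, Ly-6C at -1.29 (0.508%). Sca-1 and CD45 were then at -0.79 and -0.85, below the fold limit. With 1 library left out the spread comes from the other group alone. Such fits called no tag without control library 1 or without control library 2 (edgeR quasi-likelihood test, 33 and 31 at an unadjusted p under 0.05) and 10 without knockdown library 1, which bears little on how stable the calls are.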

How the data were processed

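CD3+ cells of 2 control and 2 knockdown libraries were profiled by 10x Genomics 3′ CITE-seq. The deposited counts are UMI counts per gene or tag and cell, made by the authors with Cell Ranger (6.1.1 per the file headers) on mm10. The filtered matrices hold 32285 genes and 197 named tags. Cells were chosen by the limits in the text, and UMIs were summed per library and class. The members, the markers and the gene lists were chosen with earlier results of these data known. Sums were tested with edgeR 4.0.16 in R 4.3.3 (TMM, filterByExpr for genes only, glmQLFit and glmQLFTest). P-values were adjusted by Benjamini-Hochberg over all features tested, and a feature was called at 0.05 with a log2 difference of 1 or more in either direction. Library was a block between classes. Standard errors were derived from the F statistic. Genes of the rule received no call. The given markers were in every fit, and their values between classes are a description. CPM are UMIs scaled to a common total per sum, without TMM. SDs are over libraries, and intervals and floors cover counting error only.

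Named genes between classes were the 12 highest and 12 lowest called with a mean of at least 20 CPM and the same direction in all 4 libraries, and, within Sox4-positive cells, the 10 highest and lowest called with at least 50 CPM and groups that did not overlap. For the interaction the 3 most positive and most negative were taken, and for tags the 8 highest and lowest called. Mitochondrial, ribosomal protein and receptor segment genes, Gm42418 and AY036118 were left out of this rule. List members were named where called or as examples, and Gm42418, AY036118, Id3 in the knockdown comparison and the per-cell subsets after their values were seen. Doublets were scored per library by simulated doublets among nearest neighbours, were kept, and were left out in an alternative. Gene coordinates are from GENCODE vM21. Alternatives were DESeq2 1.42.0, RLE or total scaling, no filter, other cell limits, a replicate or no library block, and leaving out each library. On simulated counts the class fit (8833 genes) recovered 19 of 91 genes changed 2-fold and 70 of 98 changed 4-fold, with 3 false calls. The knockdown fit (2694 genes) recovered 17 of 85 and 72 of 85, with 3 false calls. The dispersion in these counts was 0.0135 for the class fit and 0.0106 for the knockdown fit. The false calls to be had where 1 cell holds at least 50% of a gene's UMIs, as for 14 of the 70 class calls, were not tested. Some items are not reported here.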

Additional observations from a re-analysis of the deposited data

Results flagged for a closer look

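For 7 genes the difference between knockdown and control libraries was not the same in Sox4-positive and Sox4-zero cells (edgeR quasi-likelihood test of the interaction, 7 of 9053 genes, 0.0773%). All 7 values were negative: Apoe at -3.07 ± 0.47 (SE, log2; adjusted p = 0.000417), Lyz2 at -4.81 ± 0.83 (0.00231), C1qa at -3.61 ± 0.66 (0.00577), Spp1 at -14.68 ± 2.73 (0.00577), H2-Aa at -3.03 ± 0.58 (0.00746), Ccl8 at -13.85 ± 2.89 (0.0266) and C1qb at -2.94 ± 0.63 (0.0339). In Sox4-zero cells these genes were higher in the knockdown libraries, Lyz2 at 179 and 220 CPM against 43.0 and 22.6 CPM. In Sox4-positive cells Lyz2 stood at 11.6, 594, 0 and 123 CPM. Most of the Sox4-positive UMIs came from 1 cell for Spp1 (100%), Lyz2 (88.5%), Ccl8 (81.8%), C1qb (69.0%), C1qa (66.7%) and Apoe (61.9%), and 39.5% for H2-Aa. Spp1 and Ccl8 had no UMI in the Sox4-positive cells of the knockdown libraries, so their values are no bound. With cells of more than 1 macrophage or globin UMI left out, an alternative chosen after these calls were seen, none of the 7 was called and 2 other genes were: Ikzf2 at -3.17 ± 0.59 (adjusted p = 0.000534) and Nr4a1 at 3.29 ± 0.74 (adjusted p = 0.0418). With no cells left out, Nr4a1 in Sox4-positive cells stood at 8.70 and 16.2 CPM in control and 15.0 and 223 CPM in knockdown libraries, so its value rests on knockdown library 2, which held 20 of the 30 UMIs. Ikzf2, also with no cells left out, stood at 122 and 89.1 CPM in control and 29.9 and 66.8 CPM in knockdown libraries. Of its 83 UMIs, 25 came from 4 control cells with more than 4 Trdc UMIs. Another 4 lay in cells with at least 10 Lyz2 UMIs, which the alternative left out. The knockdown values come from sums of 66824 and 89775 RNA UMIs, so they rest on few Ikzf2 UMIs.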

How the results depend on the processing

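The ratio of the share of Sox4-positive cells, knockdown to control, was 0.714, and 0.900 with a Cd4 UMI required, 0.892 in cells of at least 5000 UMIs, 0.392 over all passing cells and 1.30, the other direction, after thinning at 2 Sox4 UMIs; leaving out 1 library gave 0.623 to 0.836. Genes called between classes numbered 70, and 36 with a Cd4 UMI required, 43 with Nkg7 at 0, 28 without the library block, 43 at 1 Sox4 UMI, 219 with no fold limit and 51 to 63 with 1 library left out. DESeq2 called 5 (Smc4, Id3, Lgals1, Ly6a and Hbb-bs) but gave an adjusted p to only 625 of 9053 genes, and 29 of the 33 named genes had none; 476 were at an unadjusted p under 0.05. Over the named genes and alternatives with an adjusted p, 425 of 541 values kept the call, 112 lost it and 4 turned. The 6 of 33 genes keeping it throughout were Il18r1, S100a4, S100a6 and the hemoglobin genes Hba-a1, Hba-a2 and Hbb-bs. The hemoglobin genes had fewer alternatives (14 or 15, against 17). Foxp4 kept it in 6, Hspa1b and Lgals3 in 8, Ahnak in 9 and Ccl5 and Ifit1 in 10 of 17. Lyz2 turned at -2.00 without control library 2 (1.82 without knockdown library 1), -0.97 with Nkg7 at 0 and -0.21 at 3 Sox4 UMIs. Trdc turned at -2.27 with a Cd4 UMI required. The causes were not tested. Tags called between classes numbered 2, and 1 without the library block, 1 with total scaling (TCRVb5.1_5.2, without CD73) and 0 with any library left out. Genes called by knockdown numbered 3, and 6 at a mitochondrial limit of 10%, 7 with Nkg7 at 0, 6 without myeloid and globin cells, 12 without the filter, 20 at 1 and 7 at 3 Sox4 UMIs, and 4 to 9 with 1 library left out. Tags called by knockdown numbered 6, and 15 with total scaling and 0 to 10 with 1 library left out. The interaction called 7 genes, 0 with DESeq2 (146 at an unadjusted p under 0.05), 2 without myeloid and globin cells and 13 with total scaling. With the replicate number as a block, 7 genes and 7 tags were called by knockdown; the replicate differences of the groups correlated at 0.137 over genes and 0.0312 over tags, and no label ties same-numbered libraries to each other, so the pairing is not established. The knockdown comparison rests on 22 knockdown cells, and with 1 library left out of it the lone library of a group is assumed to vary like the other group.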
